A study of Mus musculus with 3 samples.

Results

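The Sox transcription factors of the embryonic mouse kidney were followed here through 9 genes, Sox2, Sox4, Sox5, Sox6, Sox8, Sox9, Sox11, Sox12 and Sox13. The members were all probes for which the array design gave one of these names, and they came to 9 of 27745 gene names and 23 of 41174 probes on the array. The probes per gene were not even: Sox11 had 6, Sox6 had 5, Sox5 and Sox9 had 3 each, Sox8 had 2, and Sox2, Sox4, Sox12 and Sox13 had 1 each.

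SOX proteins bind DNA through an HMG box, a short domain that fits into the minor groove and bends the helix, and they are sorted into subgroups by the similarity of this box. Among the members, Sox2 is a SoxB1 factor of pluripotent cells and neural progenitors, Sox4, Sox11 and Sox12 are the SoxC factors of progenitors and differentiating cells, Sox5, Sox6 and Sox13 are SoxD factors, which lack a transactivation domain of their own and act with partners, and Sox8 and Sox9 are SoxE factors. In the developing kidney, Sox8 and Sox9 are known from the tips of the ureteric bud, where they act downstream of the Gdnf receptor Ret in branching, and loss of Sox11 in mice is known to cause malformations of the kidney and urinary tract.

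Kidney rudiments of C57BL/6 Fgfrl1-/- embryos were compared with those of C57BL/6 wildtype littermates at E12.5, when the ureteric bud has begun to branch and the first nephrons start to form. Each of the 3 arrays carried cRNA of 1 Fgfrl1-/- pool, labelled with Cy3, and 1 wildtype pool, labelled with Cy5, every pool held 6 to 9 rudiments, and 600 ng of its RNA was labelled. Fgfrl1 is a receptor of the Fgf receptor family without a kinase domain. Whole rudiments were used, so that mesenchyme, ureteric epithelium, stroma, vessels and blood all contributed RNA. The dyes were swapped on 0 arrays, and an effect of the dye on a probe cannot be told apart from one of the genotype.

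On the log2 scale of Fgfrl1-/- over wildtype, used throughout, the probe for Fgfrl1 gave -1.21, -1.51 and -1.83 on arrays 1, 2 and 3 (mean -1.52 ± 0.31 SD, n = 3; limma adjusted p = 0.0332). The sources used here do not say whether this probe lies in the deleted part. Arrays 2 and 3 shared a slide, array 1 came from a different one, and the log2 ratios of all probes correlated with r = 0.71 between arrays 2 and 3, but with r = 0.11 and 0.22 between these and array 1. A probe is called bright below when the scanner software scored it well above background on all 3 arrays in both channels. Fewer cells of a type and less RNA per cell cannot be told apart in such pools.

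Probes that cover the HMG box are shown first, because this box defines the family and is where the genes resemble each other most. The codons of a stretch conserved among SOX proteins were found in an open reading frame in the 3 probes shown and are printed in capitals. All sequences are 5′ to 3′ as designed on the array, with positions on mouse build mm8.
Sox11 A_52_P608516: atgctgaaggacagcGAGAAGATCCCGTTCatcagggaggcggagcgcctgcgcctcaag
Sox9 A_51_P451606: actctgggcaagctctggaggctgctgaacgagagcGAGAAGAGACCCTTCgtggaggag
Sox8 A_52_P269667: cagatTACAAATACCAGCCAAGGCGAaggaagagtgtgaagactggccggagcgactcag
The Sox11 probe lies on the minus strand at chr12:27928353-27928412, the Sox9 probe on the plus strand at chr11:112599086-112599938 and the Sox8 probe on the minus strand at chr17:25296524-25296583. The 60 bases of the Sox9 probe are spread over 853 bases of the genome, so the probe crosses an intron. In the Sox11 and Sox9 probes the capitals mark the same stretch of the box, and in the Sox8 probe they mark its end. This stretch of 15 bases differed between Sox11 and Sox9 at 3 bases, and when the probes were laid over each other without gaps they matched at 29 of 39 bases. Cross-hybridization between these transcripts was not tested.

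Across the family, 14 probes of 7 genes were bright, and their log2 ratios ran from -0.42 for Sox8 to 0.57 for Sox4. None of the 23 probes passed limma at an adjusted p below 0.05, 0 lower and 0 higher, where 0.398% of all probes were called lower and 0.289% higher. At an unadjusted p below 0.05 there were 4 lower and 3 higher probes, of 23, against 8.2% lower and 7.69% higher over all probes. A log2 ratio of the same sign on all 3 arrays was seen for 4 probes below 0 and 4 above 0, against 19.2% and 19% of all probes. Among the 14 bright probes, 3 were lower and 3 higher at an unadjusted p below 0.05, and over the 22824 bright probes of the array the shares were 13.3% and 12.8%. The smallest adjusted p of any member was 0.0802, that of Sox13.

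The bright Sox probes had a median log2 ratio of -0.04 and a median size, sign aside, of 0.29, while all bright probes had medians of 0.01 and 0.14. The limma 95% confidence intervals of all 14 bright probes lay between -1 and 1. A change of 2-fold or more was thus outside them as normalized here, which sets a bound only for bright probes of higher signal. Sox8, described below, passed 2-fold with the ratios of the scanner software. The intervals of the 9 other probes lay between -1 and 1 too. The constant of 50 added to the signals draws the ratios of low signals towards 0, so these 9 intervals set no bound on a change. The same holds for the bright probes of low signal, Sox8 A_52_P269672, Sox9 A_51_P451606 and Sox12 A_51_P322450. Their mean log2 signals in the Fgfrl1-/- pools were 6.41, 6.46 and 6.58. By subgroup, the 8 bright SoxC probes ran from -0.31 to 0.57, the 2 bright SoxD probes were at -0.41 and -0.31, and the 4 bright SoxE probes ran from -0.42 to 0.30.

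**Figure D1:**
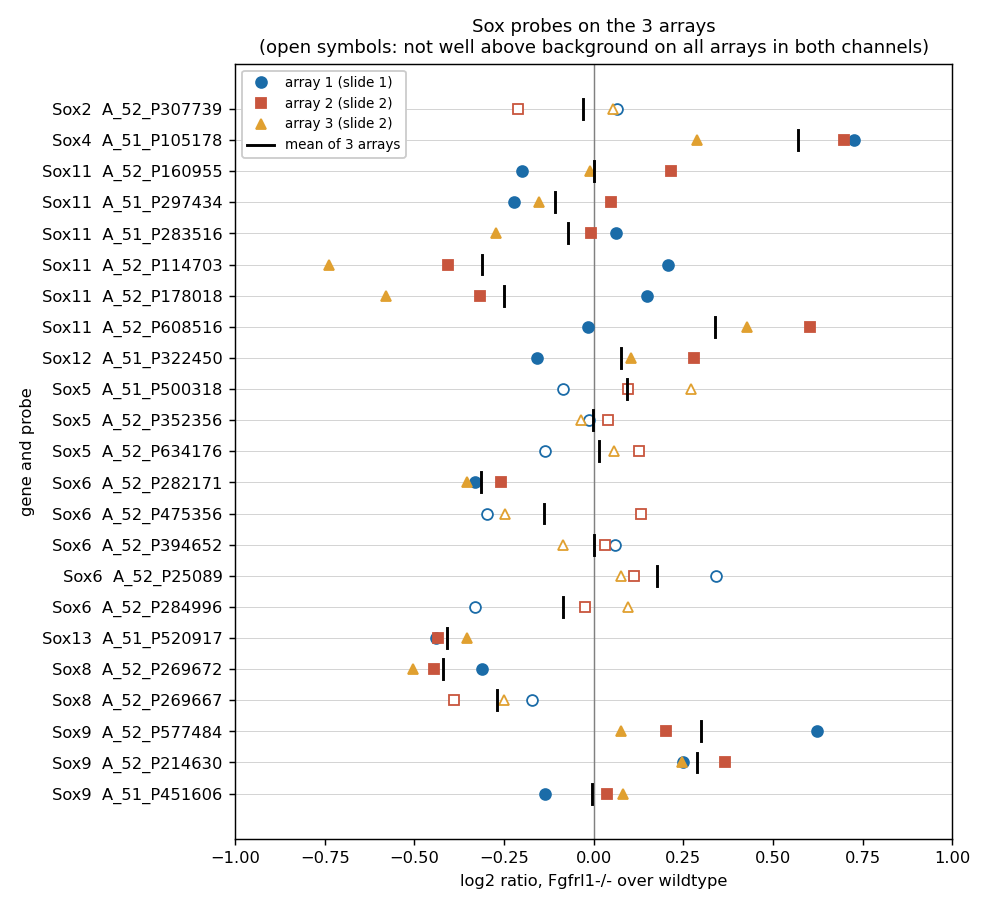
Log2 ratio of Fgfrl1-/- over wildtype (x axis) of the 23 Sox probes (y axis), with 1 symbol per array and a black bar at the mean of the 3 arrays. Sox13, Sox8 and Sox6 A_52_P282171 lie left of 0 on all 3 arrays. Sox4, Sox9 A_52_P214630, Sox9 A_52_P577484 and the dim probe Sox6 A_52_P25089 lie right of 0 on all 3. The Sox11 probes scatter across 0, with array 1 away from the other arrays at A_52_P114703, A_52_P178018 and A_52_P608516.

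Sox4, a SoxC factor of nephron progenitors and of many other embryonic progenitors, had the highest ratio of the family. Its single probe A_51_P105178, on the minus strand at chr13:28959662-28959721, gave normalized log2 signals of 12.03, 11.98 and 12.02 in the Fgfrl1-/- pools of arrays 1, 2 and 3. The wildtype pools gave 11.30, 11.28 and 11.73. The Fgfrl1-/- pools thus lay within 0.05 of each other and above every wildtype pool, and the wildtype pool of array 3 stood closest to them. The log2 ratios were 0.73, 0.70 and 0.29 (mean 0.57 ± 0.25 SD, n = 3; 95% confidence interval 0.30 to 0.84; limma adjusted p = 0.0928), which is a fold of 1.49. The ratio stayed above 0 under all 16 alternative ways of processing, and was lowest, at 0.23, when arrays were only centred on their median, a scaling under which probes with a mean log2 signal over 10 had a median ratio of -0.34.

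Sox11, the closest relative of Sox4, gave different ratios at its 6 probes, all bright and all on the minus strand of chromosome 12. From the 5′ side of the gene, the first was the HMG-box probe A_52_P608516 printed above. It gave -0.02, 0.60 and 0.43 on arrays 1, 2 and 3 (mean 0.34 ± 0.32 SD; adjusted p = 0.299). The next probes, A_52_P114703 and A_52_P178018, lay 1.36 and 1.57 kb further towards the 3′ end and had ratios of the other sign on average. A_52_P114703 gave 0.21, -0.41 and -0.74 (mean -0.31 ± 0.48 SD; adjusted p = 0.492). A_52_P178018 gave 0.15, -0.32 and -0.58 (mean -0.25 ± 0.37 SD; adjusted p = 0.495). Both of these probes followed the same order over the arrays, with array 1 on the other side of 0 from arrays 2 and 3. The last 3 probes, 4.09, 6.89 and 7.41 kb from the HMG-box probe, had means of -0.07, -0.11 and 0.00 and signs that differed between arrays. The sign of the last of them, A_52_P160955, turned with the background correction, the scaling and the array left out, and that of A_51_P283516, at 4.09 kb, turned without array 3. No direction can thus be given for Sox11 as a gene, since its probes disagreed by more than 0.6 on the log2 scale and array 1 lay on the other side of 0 from both arrays of the other slide at 4 of them.

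**Figure D2:**
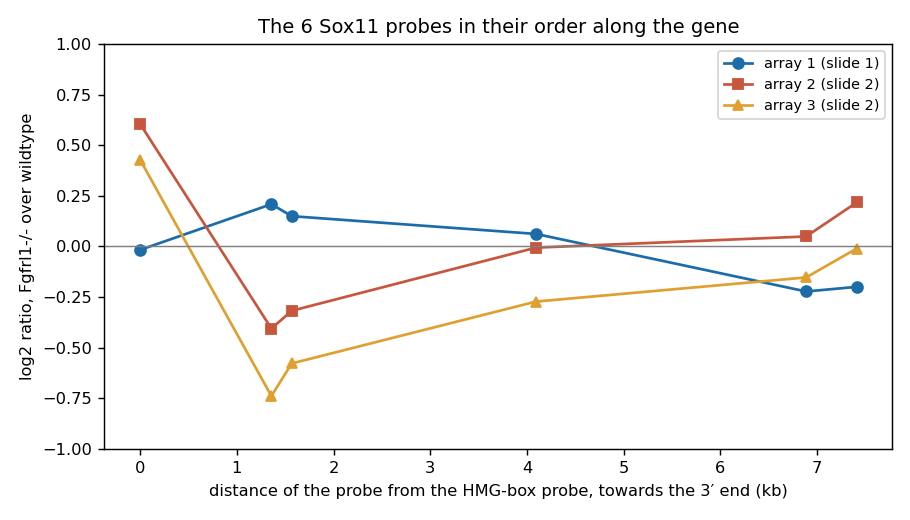
Log2 ratio of Fgfrl1-/- over wildtype (y axis) of the 6 Sox11 probes against their distance from the HMG-box probe in kb (x axis, genome build mm8), with 1 line per array. Arrays 2 and 3 start at 0.60 and 0.43 and drop to -0.41 and -0.74 at 1.36 kb. At 7.41 kb they are at 0.22 and -0.01. Array 1 stays between -0.22 and 0.21.

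Sox12, the third SoxC gene, was measured by the probe A_51_P322450, which was bright but of low signal. Its signals were 6.48, 6.65 and 6.59 in the Fgfrl1-/- pools and 6.64, 6.37 and 6.49 in the wildtype pools, so the groups overlapped. The ratios were -0.16, 0.28 and 0.10 (mean 0.08 ± 0.22 SD; 95% confidence interval -0.18 to 0.33; adjusted p = 0.804), and the sign turned to -0.03 without array 2. The mean was 0.22 with the ratios of the scanner software.

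Of the SoxE genes, Sox8 had ratios below 0 at both probes, whereas the means of the Sox9 probes were 0.30, 0.29 and -0.01. Sox8 A_52_P269672, on the minus strand at chr17:25293749-25293808, had signals of 6.29, 6.55 and 6.40 in the Fgfrl1-/- pools and 6.61, 6.99 and 6.90 in the wildtype pools. Every Fgfrl1-/- pool was below every wildtype pool, with a gap of 0.06 between the closest. The ratios were -0.31, -0.44 and -0.51 (mean -0.42 ± 0.10 SD, n = 3; 95% confidence interval -0.61 to -0.23; limma adjusted p = 0.0876), or 1.34-fold less in Fgfrl1-/-. The other Sox8 probe, A_52_P269667, which covers the end of the HMG box, was well above background in 2 of 3 Fgfrl1-/- pools and 3 of 3 wildtype pools, and gave -0.17, -0.39 and -0.25 (mean -0.27 ± 0.11 SD; adjusted p = 0.182). Its signals of 6.47, 6.32 and 6.39 in the Fgfrl1-/- pools were all below those of 6.64, 6.72 and 6.64 in the wildtype pools. Both probes had low signals, and their ratios moved with the processing. A constant of 50 was added after normexp, the model that corrected the background here, and this draws the ratios of low signals towards 0. A_52_P269672 gave -0.61 without background subtraction, -0.90 with normexp and nothing added, -0.64 in the authors' table of log2 ratios and -1.28 with the ratios of the scanner software, with adjusted p values of 0.0899, 0.381, 0.102 and 0.179. The sign was below 0 for both probes under every alternative run.

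Sox9 was measured by 3 bright probes. A_52_P214630, spotted 10 times on each array, lies on the plus strand at chr11:112603585-112603644. It gave 10.12, 10.46 and 10.42 in the Fgfrl1-/- pools and 9.87, 10.10 and 10.17 in the wildtype pools. The groups overlapped, because both pools of array 1 were low, but the Fgfrl1-/- pool was the higher one on each array. The ratios were 0.25, 0.37 and 0.24 (mean 0.29 ± 0.07 SD; 95% confidence interval 0.11 to 0.47; adjusted p = 0.142), and 0.03 when arrays were only centred on their median. A_52_P577484 gave 0.62, 0.20 and 0.08 (mean 0.30 ± 0.29 SD; adjusted p = 0.317), so that array 1 carried most of its mean, and median centring took it to -0.01. The HMG-box probe A_51_P451606 stayed near 0, at -0.14, 0.04 and 0.08 (mean -0.01 ± 0.11 SD; adjusted p = 0.985), with a sign that turned under 6 of 14 alternatives. Its signal was low, with a mean of 6.46 in the Fgfrl1-/- pools, and it gave 0.26 with the ratios of the scanner software, beside 0.38 for A_52_P577484 and 0.31 for A_52_P214630. With median centring all 3 Sox9 probes were near 0, at 0.09, -0.01 and 0.03.

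The difference between the ratios of Sox8 A_52_P269672 and Sox9 A_52_P214630, a pair chosen after their values were seen, was -0.56, -0.81 and -0.75 on arrays 1, 2 and 3 (mean -0.71 ± 0.13 SD, n = 3). It was below 0 on all arrays, and an exact two-sided sign-flip test over the 3 arrays gave p = 0.25, the smallest p that 3 arrays allow. Over the alternatives run for both probes the difference ran from -1.59 with the ratios of the scanner software, through -1.20 with normexp and nothing added and -0.91 without background subtraction, to -0.42 with median centring.

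**Figure D3:**
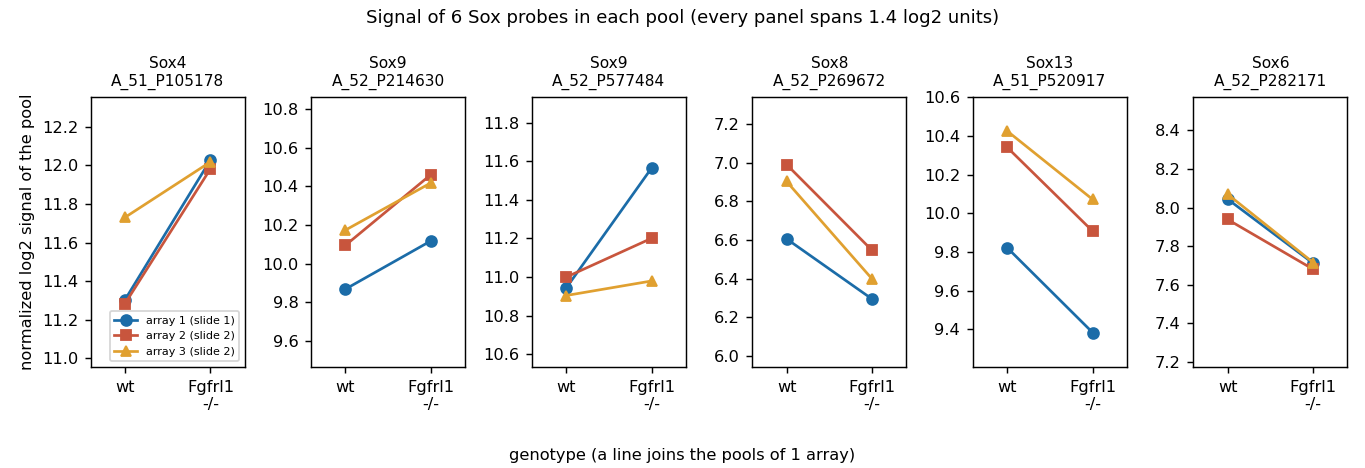
Normalized log2 signal (y axis, 1.4 log2 units in every panel) in the wildtype and Fgfrl1-/- pools (x axis) for 6 Sox probes, with a line for each array. The 3 Fgfrl1-/- pools of Sox4 sit at 11.98 to 12.03, above the wildtype pools, while for Sox13 the lines run in parallel, with array 1 low in both genotypes.

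Among the SoxD genes, Sox13, which binds Tcf7 and is known as an antagonist of Wnt signalling, gave the steadiest ratio of all bright members. Its probe A_51_P520917, on the minus strand at chr1:135209903-135209962, had signals of 9.38, 9.91 and 10.07 in the Fgfrl1-/- pools and 9.82, 10.34 and 10.43 in the wildtype pools. The pools of the 2 genotypes overlapped because both pools of array 1 were low, whereas the ratios lay close together at -0.44, -0.43 and -0.35 (mean -0.41 ± 0.05 SD, n = 3; 95% confidence interval -0.58 to -0.24; limma adjusted p = 0.0802), or 1.33-fold less in Fgfrl1-/-. The ratio ran from -0.65 to -0.33 over the 16 alternatives.

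Sox6, which acts with Sox5 and Sox9 in cartilage, was bright at 1 of its 5 probes. A_52_P282171, on the minus strand at chr7:115266015-115266074, gave 7.71, 7.68 and 7.72 in the Fgfrl1-/- pools and 8.04, 7.94 and 8.07 in the wildtype pools, which did not overlap. Its ratios were -0.33, -0.26 and -0.35 (mean -0.31 ± 0.05 SD; 95% confidence interval -0.49 to -0.14; adjusted p = 0.116). When all 5 Sox6 probes were averaged the ratio was -0.07. Of the dim Sox6 probes, A_52_P475356, on all wildtype and 2 of 3 Fgfrl1-/- pools above background, gave -0.30, 0.13 and -0.25, and the remaining 3 had means between -0.09 and 0.18. Of the 14 bright probes, 2 had all Fgfrl1-/- pools below all wildtype pools, Sox8 A_52_P269672 and Sox6 A_52_P282171, and 1 had them above, Sox4, against 8.8% and 8.61% of all bright probes.

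Sox2 and Sox5 were at the edge of detection. The Sox2 probe was well above background in 1 Fgfrl1-/- pool and in 0 wildtype pools, and its ratio was -0.03 ± 0.16. The 3 Sox5 probes were above background in at most 1 pool of the 6, with mean ratios from 0.00 to 0.09. The Sox2 probe, 2 Sox5 probes and Sox6 A_52_P25089 were above background in 1 Fgfrl1-/- pool and in 0 wildtype pools, and no fold is given for them. Over all probes, 80.5% of Fgfrl1-/- spots and 61.5% of wildtype spots were scored well above background on array 1. On arrays 2 and 3 the shares were 57.7% and 64.4% for Fgfrl1-/- and 65.5% and 65.3% for wildtype. In all, 2 of the 23 probes, 1 of Sox5 and 1 of Sox6, were not well above background in any pool.

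The calls depended on how the slide was handled and on which array was left out. Array 1 differed from arrays 2 and 3 in its slide, its scanner software version and its pools, which cannot be told apart. With the slide as a fixed block, which leaves 1 residual degree of freedom between arrays 2 and 3, limma called 9 of 23 Sox probes, 4 lower and 5 higher, but it also called 11.3% of all probes lower and 13.7% higher. The lower ones were Sox8 A_52_P269672 (-0.39, adjusted p = 0.000692), Sox13 (-0.42, adjusted p = 0.000488), Sox6 A_52_P282171 (-0.32, adjusted p = 0.0029) and Sox8 A_52_P269667 (-0.25, adjusted p = 0.0148). The higher ones were Sox4 (0.61, adjusted p = 0.000183), Sox9 A_52_P577484 (0.38), Sox9 A_52_P214630 (0.28), Sox11 A_52_P608516 (0.25) and the dim probe Sox6 A_52_P25089 (0.22). Without array 1, which leaves the slide with arrays 2 and 3, 6 Sox probes were called lower and 3 higher, where 10.1% and 8.49% of all probes were called. These added Sox11 A_52_P114703 at -0.57 and A_52_P178018 at -0.45 to the lower ones, and both settings shared 7 calls, all of the same sign. Without array 2 or without array 3, limma called 0 Sox probes and 0 of all probes, and at an unadjusted p below 0.05 there were 4 and 5 Sox probes among 3712 and 3141 in all.

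**Figure D4:**
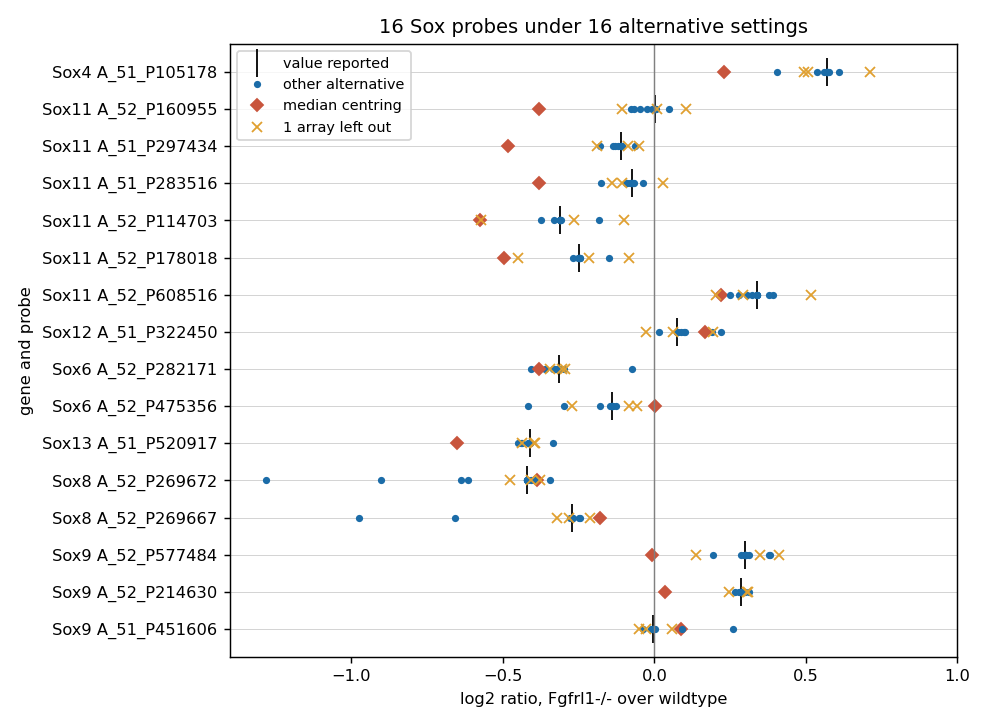
Log2 ratio of Fgfrl1-/- over wildtype (x axis) of the 16 Sox probes that were well above background on all arrays in at least 1 channel (y axis), as reported (black bar) and under the alternatives run for each probe (14 to 16). Sox4, Sox8, Sox13 and Sox6 A_52_P282171 keep their side of 0, Sox8 A_52_P269672 reaches -1.28, and median centring moves probes of high signal such as Sox4 and Sox9 A_52_P214630 to the left.

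The genes around the Sox factors were taken from lists chosen for this comparison, with earlier results of these data known. The brightest probe of each gene was used. Of the genes named below, the authors had listed Cxcr4, Etv4, Spry1, Gdnf, Sp5 and Lef1 as reduced on these same arrays. Their low ratios were thus no independent result. The 10 other Sox genes on the array, from Sox1 to Sox30, had a median ratio of -0.09, and 0 were called by limma (0 at an unadjusted p below 0.05); their brightest, the SoxF factor Sox18 of vessels, was at -0.09. Of 12 genes of the ureteric tip and Ret pathway, in which Sox8 and Sox9 act, 5 were called lower and 1 higher, with a median of -0.46 beside 0.00 over all probes. The lower ones were the chemokine receptor gene Cxcr4 (-1.08, adjusted p = 0.0346), the ETS factor Etv4 (-1.05, adjusted p = 0.0416), the feedback inhibitor Spry1 (-0.94, adjusted p = 0.0346), the Ret ligand Gdnf (-0.83, adjusted p = 0.0421) and the tip Wnt Wnt11 (-0.76, adjusted p = 0.0408). Gfra3, a co-receptor of another ligand of this family, was at 0.68 (adjusted p = 0.0429), and the brightest, Dusp6, at -0.25 (adjusted p = 0.265). Ret itself was not well above background in any pool. These 6 calls kept their sign under all 16 alternatives, but the 5 lower ones were lost in 7 of them and that of Gfra3 in 9.

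Of 8 genes linked to SoxC factors, such as the neuronal Tubb3 and Dcx, 0 were called (median -0.10). At an unadjusted p below 0.05, 1 was lower and 1 higher, against 8.2% and 7.69% of all probes. The brightest, Marcksl1, was at 0.08, or -0.37 with median centring. Of 13 cartilage matrix genes that Sox5, Sox6 and Sox9 drive in chondrocytes, 0 were called (median -0.02; 2 lower and 1 higher at an unadjusted p below 0.05), and Col2a1, the brightest, was at -0.04, or 0.02 without array 3. Of 7 genes of beta-catenin and its partners, 3 were called lower, namely Sp5 (-1.66, adjusted p = 0.0488), Lef1 (-1.13, adjusted p = 0.0416) and Tcf7 (-0.69, adjusted p = 0.0379), the factor that Sox13 binds. These calls were lost in 7, 6 and 9 of the 16 alternatives, in the same order, and averaging its probes took Lef1 to -0.67. The median of the 7 genes was -0.14, and their brightest, Tcf7l1, was at -0.06, with a sign that turned without array 3 and when probes were averaged.

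Some markers of the cell types in the rudiment passed the test too, and their part in the Sox ratios was not tested. The authors had listed all 7 renal vesicle genes as reduced on these same arrays, and this was known when the list was chosen. All 7 were below 0 (median -1.39) and 5 were called. These were Wnt4 at -2.40, Fgf8 at -2.05, Lhx1 at -1.72, Hes5 at -1.39 and Dll1 at -1.08. Jag1, the brightest, was at -1.28 (adjusted p = 0.0604). When probes were averaged, Fgf8 was at -1.22. The summed signal of the 7 genes was 1799 to 2785 in the Fgfrl1-/- pools and 6329 to 6812 in the wildtype pools. Of 7 cap mesenchyme genes, 6 were below 0 (median -0.30). Of these, 4 had an unadjusted p below 0.05, where 13.3% of all bright probes were lower at this threshold. Cited1 was called lower (-0.78, adjusted p = 0.0442), and the brightest, Crym, was at -0.42. Six2 was near 0 (-0.05, adjusted p = 0.897), and Osr1 was at 0.05 (adjusted p = 0.881). Summed, the 7 cap mesenchyme genes gave 16569 to 20546 in Fgfrl1-/- and 24221 to 25310 in wildtype pools. Of 7 stromal genes, Pdgfra (1.02, adjusted p = 0.0274) and Col1a1 (0.84, adjusted p = 0.0416) were called higher. Under median centring they were at 0.68 and 0.29 (adjusted p = 0.213 and 0.852). The authors' qPCR at E12.5 found Col1a1 unchanged, and they reported that no array rise they tested by qPCR was reproduced. Tcf21 was at -0.48 (adjusted p = 0.127) and Pdgfrb at -0.25 (adjusted p = 0.344). The summed stromal signal, to which Col1a1 and Foxd1 gave most, was 96832 to 111051 in Fgfrl1-/- and 63763 to 65768 in wildtype pools. For 9 genes of the ureteric epithelium 0 were called (median 0.37). At an unadjusted p below 0.05, 6 were higher, against 12.8% of all bright probes. Calb1, the brightest, was at 0.37, or -0.09 with median centring. The summed signal of the 9 genes was 42413 to 56647 in Fgfrl1-/- and 34715 to 41405 in wildtype pools.

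The lists for endothelium, for neural crest, glia and neurons, for gonad and adrenal, for skeletal muscle and for erythroid cells had 0 genes called. At an unadjusted p below 0.05 they held 2 lower genes, both neural, and 1 higher gene, in muscle, against 8.2% and 7.69% of all probes. Their brightest genes were Emcn at -0.10, Elavl4 at -0.71 (adjusted p = 0.0906), Wt1 at -0.11, Tnnt1 at 0.54 (adjusted p = 0.0881) and Hba-a1 at -0.13. The neural list, with Elavl4, had 3 genes below 0 and 5 above (median 0.02). In the gonad and adrenal list, with Wt1, Nr5a1, Amh and Cyp11a1 were well above background in at most 1 pool of each genotype. The summed signal of the muscle list varied most between pools of 1 genotype, from 1471 to 3349 in Fgfrl1-/- and from 1240 to 3007 in wildtype. The erythroid sums were 44252 to 46223 in Fgfrl1-/- and 49041 to 50650 in wildtype pools, and the neural sums 2201 to 2432 and 2660 to 3057. Sums apart between the genotypes were thus also seen in lists with 0 genes called. The sums for endothelium, for gonad and adrenal and for muscle overlapped.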

How the data were processed

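RNA of 3 pairs of pools was hybridized to 3 Agilent whole mouse genome arrays. The authors deposited, for each array, Agilent Feature Extraction output (version 9.5.3.1 for array 1, 10.5.1.1 for arrays 2 and 3), with median intensity of each spot and its background, processed intensity, flags, and a log10 ratio of wildtype over Fgfrl1-/-. A table of log2 ratios by the authors holds 1 value per probe and array. Its steps are not given in the sources used here, and its direction, Fgfrl1-/- over wildtype, was found from its correlation of -0.70 to -0.72 with the scanner ratios. Spot medians were background corrected with normexp (offset 50) and normalized within arrays by loess in limma 3.58.1 (R 4.3.3). Outlier spots (107 to 138 per array) were left out, 0 spots were saturated, and spots of a probe were averaged. Ratios were turned to Fgfrl1-/- over wildtype and tested against 0 with lmFit and eBayes over 41174 probes, with Benjamini-Hochberg adjustment over all of them. An array ratio compares the 2 pools of that array. Pool signals came from loess and Aquantile normalization. The pools are separate RNA preparations, and which litters they came from is not given. The main fit treated the 3 arrays as independent, though arrays 2 and 3 shared a slide. Its p-values thus measure the spread between these arrays, slide included, with the variance moderated over all probes. With the slide as a fixed block, the spread is that between arrays 2 and 3. Having 3 arrays limits the precision.

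Members were taken by the name in the array design; list genes were named through RefSeq accessions (24375 probes), current symbols (6301) or older symbols (2426) of GRCm38.p6, and 8072 of 41174 probes stayed unnamed. The members and lists were chosen with earlier results of these data known. Named were all member probes, Fgfrl1, and in each list the genes called (at most the 5 with the largest ratio) and the brightest. Gfra3, Ret, Tubb3, Dcx, Tcf21, Pdgfrb, Foxd1, Six2, Osr1, Nr5a1, Amh and Cyp11a1 were named after their values were seen. No Sox probe passed the threshold, so no genes of like pattern were sought. Sequences and mm8 positions are from the array files, and the sequence of the Sox12 probe is not reported here; the place of other probes within transcripts was not analysed here. The fit was checked on simulated data with independent errors on each array. These held no slide or dye effect, so the check does not bear on either. Alternatives changed the background correction, scaling, filters, probe summary, variance model, slide, source table and arrays. Figures were drawn with matplotlib.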

Additional observations from a re-analysis of the deposited data

How the results depend on the processing

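Of the 16 alternatives, 14 left 0 Sox probes called lower and 0 higher. With the slide as a fixed block 4 were called lower and 5 higher, and with 1 array left out the counts ran from 0 to 6 lower and from 0 to 3 higher, the 6 and 3 without array 1. The cause of the difference between the slides was not tested. Over all probes, 164 were called lower and 119 higher; the counts were 117 and 72 without background subtraction, 0 and 0 with a normexp offset of 0 and with the ratios that the scanner gave, 91 and 2 with median centring, 60 and 22 with quantile normalization between arrays, 34 and 7 without dim probes, 237 and 226 in the separate-channel fit, 32 and 4 in the authors' table, 4649 and 5632 with the slide block, and 0 to 4172 and 0 to 3494 with 1 array left out. Among the 16 Sox probes above background on all arrays in at least 1 channel and the genes called or brightest in their list, these signs turned. Sox11 A_52_P160955 was at -0.0086 with an offset of 0, -0.38 with median centring, -0.077 with quantile normalization, -0.067 as the mean of all Sox11 probes, -0.023 in the authors' table, -0.048 with the slide block and between -0.11 and 0.10 with 1 array left out. Sox9 A_51_P451606 was at 0.083 without background subtraction, 0.26 with scanner ratios, 0.087 with median centring, 0.0015 with quantile normalization, 0.090 in the authors' table and between -0.050 and 0.059 with 1 array left out. With median centring Sox6 A_52_P475356 was at 0.0022, Sox9 A_52_P577484 at -0.0065, Marcksl1 at -0.37 and Calb1 at -0.090. Tcf7l1 was at 0.015 as the mean of its probes. With 1 array left out, the ratio ran from -0.16 to 0.0039 for Tcf7l1, from -0.091 to 0.021 for Col2a1, from -0.14 to 0.028 for Sox11 A_51_P283516 and from -0.028 to 0.19 for Sox12. The Fgfrl1 probe kept its sign in all 16 and missed the threshold in 4. The list genes called kept their sign in all 16 too, and missed the threshold in 4 (Wnt4, Lhx1, Fgf8, Hes5), 5 (Pdgfra), 6 (Lef1), 7 (Gdnf, Wnt11, Etv4, Spry1, Cxcr4, Sp5), 8 (Cited1, Col1a1) or 9 (Tcf7, Dll1, Gfra3). Low signal limits Sox2, Sox5, Sox8, Sox12, Sox9 A_51_P451606 and most Sox6 probes.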
